A study of Mus musculus with 16 samples.

Results

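The genes described here encode cytoplasmic dynein 1 and 3 of the proteins that steer it, in cultured mouse sensory neurons. The 10 members were taken by name: the heavy chain Dync1h1, the intermediate chains Dync1i1 and Dync1i2, the light intermediate chains Dync1li1 and Dync1li2, the light chains Dynll1 and Dynll2, the adaptor Bicd2, and the regulators Ndel1 and Pafah1b1. Each name matched 1 of the 55356 gene identifiers in the table of read counts, and all 10 passed the filter on low counts that left 19156 genes for testing.

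Neurons came from dorsal root ganglia of CD1 mouse embryos and grew for 6 days in a medium that held nerve growth factor together with fluorodeoxyuridine plus uridine, a mixture used to suppress dividing cells. Every culture was first given DMSO or 500 nM GNE3511, an inhibitor of the axon-damage kinase DLK, and 15 min later DMSO or 200 nM nocodazole, a drug that takes microtubules apart, for 16 h. The 4 groups of 4 libraries are called DMSO (DMSO, then DMSO), nocodazole (DMSO, then nocodazole), inhibitor (GNE3511, then DMSO) and inhibitor plus nocodazole (GNE3511, then nocodazole). One inhibitor at a single dose was used, so effects through DLK and through other targets cannot be told apart. No label ties the replicates to separate cultures or animals, so the p-values measure only how far these samples spread, and that spread may be technical.

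Dynein is the motor that carries cargo along microtubules towards their minus ends, which in an axon means from the tip back to the cell body. A pair of heavy chains burns ATP and walks, intermediate and light intermediate chains hold the tail together and bind cargo adaptors, and light chains stabilise the dimer. Dynactin and a coiled-coil adaptor such as Bicd2 switch the motor to long runs, while Pafah1b1 (LIS1) and Ndel1 help it to assemble and to bear load. In sensory neurons this transport returns neurotrophin signals, and after injury the signals of the DLK and JNK pathway, to the nucleus.

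Total counts ran from 30987962 to 43321421 per library, and the members together made up between 0.562% and 0.703% of them. Levels are given as CPM, counts relative to the scaled library size, and changes as log2 fold changes with a standard error (SE); a gene was called when its edgeR p, adjusted over all 19156 genes, was under 0.05. Replicate 1 of the inhibitor plus nocodazole group stood apart, at 10.4 on the first principal component (38.2% of the variance) against -31.4 to -28.4 for its 3 companions, with 1.71% of its counts from the mitochondrial genome, where all libraries ranged from 0.765% to 1.78%. Results on the members that turn on it are given with and without it. Summed levels of 10 pan-neuronal markers ran from 11695 to 12848 CPM in DMSO, from 8612 to 10670 in nocodazole, from 9852 to 11659 in the inhibitor group and from 8508 to 10944 CPM with both drugs. Those of 10 sensory neuron markers ran from 4188 to 4542 CPM in DMSO, 3736 to 4025 in nocodazole, 3939 to 4055 in the inhibitor group and 3950 to 4086 CPM with both drugs. In each of the 3 treated groups both sums thus lay below DMSO without overlap, and their part in the results was not tested. The single markers were mixed. With nocodazole 4 of 10 pan-neuronal markers were called lower and 1 higher, and 5 of 10 sensory neuron markers lower and 2 higher. Over all tested genes 19.0% were lower and 18.6% higher. With the inhibitor alone 0 pan-neuronal markers and 1 sensory neuron marker (lower) were called, beside 13.0% of all tested genes. In each list 5 of 10 then had a log2 change above 0. Tubb3 alone ran from 766 to 3287 CPM. The glial marker Sox10 did not exceed 0.407 CPM in any library, but S100b reached 105 and Mbp 74.7 CPM. The 10 Schwann and satellite glia markers summed to 152 to 175 CPM in DMSO and 90.7 to 137 in nocodazole. They summed to 88.9 to 154 CPM in the inhibitor group and 77.2 to 139 with both drugs. These sums came mostly from S100b and Mbp, and the single glia markers were mixed. Of the 10, 5 were tested, and with nocodazole 2 were called higher and 1 lower, with a median log2 change of 0.38. Summed fibroblast markers were highest in nocodazole, at 6.07 to 9.16 CPM, a range that overlapped that of DMSO, 3.08 to 6.24 CPM. They ran from 2.95 to 5.06 CPM in the inhibitor group and from 2.42 to 3.35 with both drugs. With nocodazole 1 of the 7 fibroblast markers tested was called higher and 0 lower. In bulk RNA, fewer cells of a type and less RNA per cell cannot be told apart.

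The promoters of 3 members are shown: those of Bicd2 and Ndel1, which were higher in nocodazole and lower again when the inhibitor was added to it, and that of Dync1i1, which was lower with the inhibitor alone. Dync1h1, the other member that was higher in nocodazole, held neither motif searched. Each sequence is the 250 bases before the RefSeq start on GRCm38.p6, read 5′ to 3′ on the gene's own strand, and capitals mark a match to TGACGT or its reverse complement, the core to which ATF and CREB factors bind.
Bicd2: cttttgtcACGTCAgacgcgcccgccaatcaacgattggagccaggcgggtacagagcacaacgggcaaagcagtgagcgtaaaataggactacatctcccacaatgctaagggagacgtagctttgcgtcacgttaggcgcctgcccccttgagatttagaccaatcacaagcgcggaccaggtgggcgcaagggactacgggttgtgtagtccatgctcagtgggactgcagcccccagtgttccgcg
Ndel1: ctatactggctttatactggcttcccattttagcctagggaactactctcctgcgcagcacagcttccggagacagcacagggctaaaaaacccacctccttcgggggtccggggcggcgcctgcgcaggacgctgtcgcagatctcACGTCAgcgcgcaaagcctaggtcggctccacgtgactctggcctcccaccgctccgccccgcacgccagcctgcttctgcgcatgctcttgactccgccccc
Dync1i1: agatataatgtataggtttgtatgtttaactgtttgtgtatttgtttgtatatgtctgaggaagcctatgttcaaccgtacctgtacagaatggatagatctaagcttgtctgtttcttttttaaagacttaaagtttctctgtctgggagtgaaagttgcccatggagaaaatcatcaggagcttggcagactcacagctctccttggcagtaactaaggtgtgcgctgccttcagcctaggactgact
The windows lie at chr13:49341299-49341548 on the plus strand for Bicd2, at chr11:68853136-68853385 on the minus strand for Ndel1, and at chr6:5725389-5725638 on the plus strand for Dync1i1. None of the 3 overlaps an exon of the GENCODE M21 annotation, and the Ndel1 window lies within the span that annotation gives to the gene. The match begins 242 bases before the start in Bicd2 and 103 bases before it in Ndel1, and no match was found in the Dync1i1 window.

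RefSeq's table gave starts for 8 members, and Bicd2 and Ndel1 were the only ones of these with TGACGT, searched on both strands with overlapping matches counted. Among 32851 promoter windows of the same length, 6.47% held that motif. The AP-1 site TGANTCA, searched in the same way, was in 6.75% of the windows and in none of these 8 members. Dync1li2 and Dynll2 were not in the table. These matches describe letters in a window and not binding.

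The order of the members was read from DMSO libraries on the scale of CPM per kilobase of merged exons, using GENCODE M21 lengths on GRCm38. The heavy chain Dync1h1 was highest at 208 ± 15.1 CPM per kilobase (SD, n = 4), followed by the light chain Dynll2 at 148 ± 8.04 and Pafah1b1 at 82.4 ± 1.16. The light intermediate chains came next, with Dync1li2 at 71.1 ± 3.35 and Dync1li1 at 61.2 ± 3.07 CPM per kilobase. Dync1i1 stood at 52.8 ± 2.50, Dynll1 at 44.3 ± 1.08 and Bicd2 at 37.3 ± 2.32 CPM per kilobase. Dync1i2, at 31.7 ± 0.764, and Ndel1, at 31.3 ± 1.38 CPM per kilobase, were lowest and were the only neighbours in this order whose ranges over the 4 libraries overlapped. Under nocodazole Bicd2 moved from the eighth place to the sixth, at 56.0 ± 2.15 CPM per kilobase. Merged exons count every annotated exon, so a gene that uses a short isoform is understated on this scale.

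**Figure D1:**
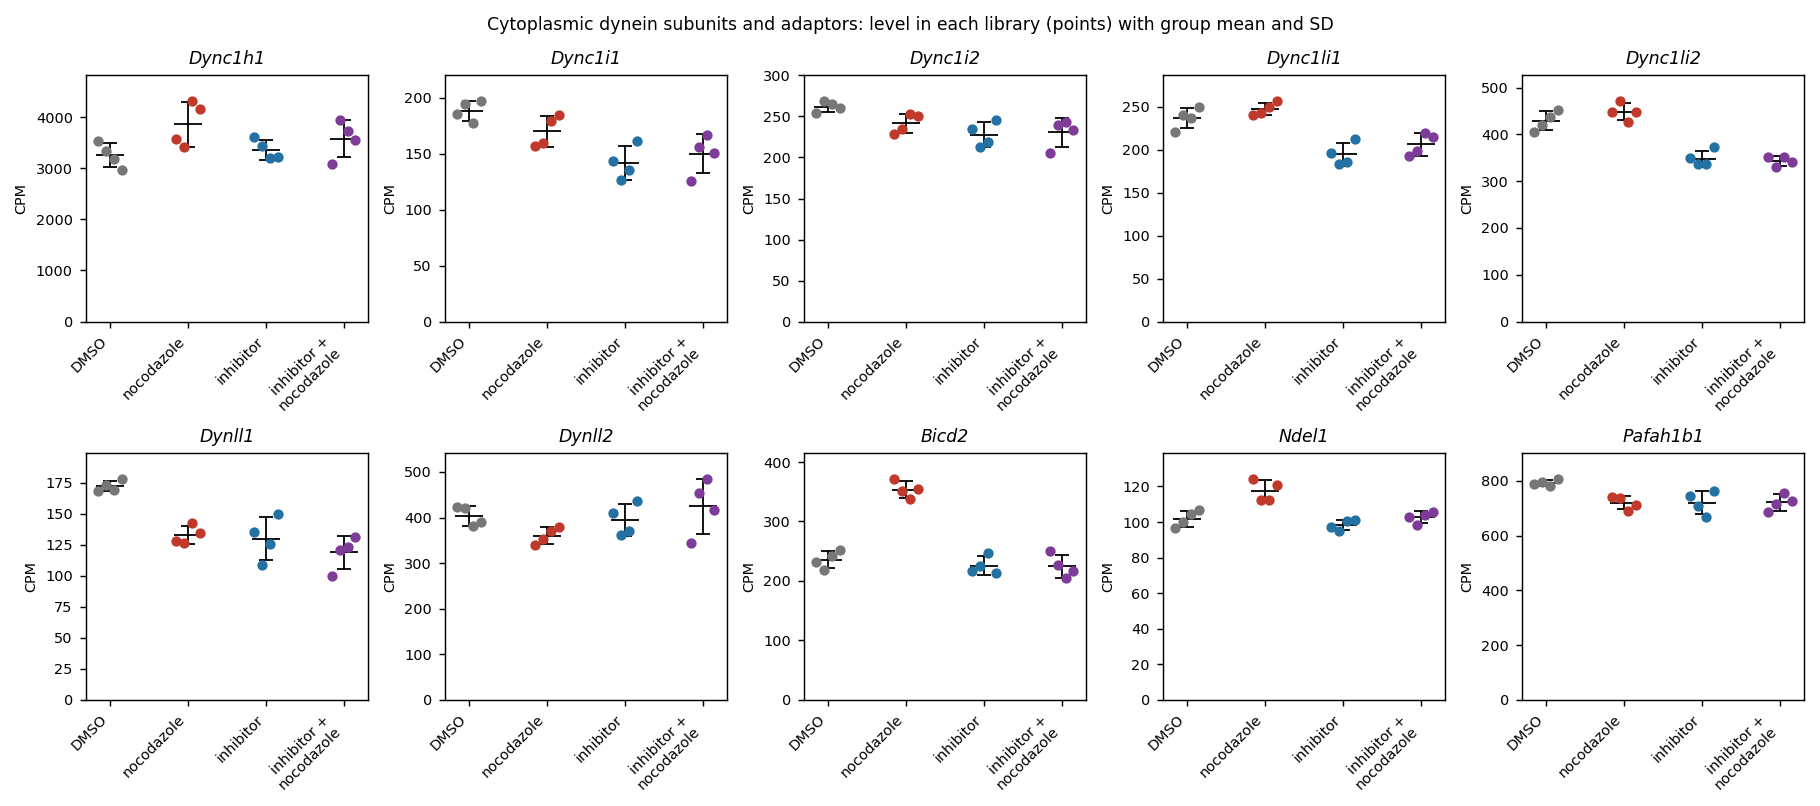
Level of each of the 10 members in CPM (vertical axis, from 0) in the 16 libraries (points), by group, with the group mean and SD as bars. Bicd2 in nocodazole lies between 338 and 371 CPM, above the other 12 libraries, and both light intermediate chains, Dync1li1 and Dync1li2, lie lower in every library with the inhibitor than in every library without it.

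Nocodazole without the inhibitor was compared with DMSO to ask how the motor's genes respond to a drug against the track it walks on. Bicd2, Ndel1 and Dync1h1 rose and Dynll1 and Pafah1b1 fell, while the 4 genes for intermediate and light intermediate chains, and Dynll2, were not called. That is 5 of 10 members, where 37.5% of all tested genes were called, with 18.6% higher and 19.0% lower. The members' median log2 change was -0.03, beside 0.01 over all tested genes.

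Bicd2, the adaptor that links dynein and dynactin to vesicles and to the nuclear envelope, changed most. Its levels were 231, 218, 242 and 252 CPM in the 4 DMSO libraries and 371, 351, 338 and 355 CPM in nocodazole, so that the groups did not overlap. The log2 change was 0.58 ± 0.0671 (SE, n = 4 per group), or 1.50-fold, with an edgeR adjusted p of 5.5e-06. Ndel1, which binds LIS1 and the dynein tail, measured 96.4, 100.2, 104.4 and 106.5 CPM in DMSO and 124, 112.1, 112.2 and 120.8 CPM in nocodazole. Again each nocodazole library lay above each DMSO library. The log2 change of Ndel1 was smaller, at 0.20 ± 0.0494 (edgeR adjusted p = 0.0040).

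The heavy chain Dync1h1, the motor subunit itself, gave 3531, 3339, 3184 and 2971 CPM in DMSO and 3566, 3419, 4318 and 4163 CPM in nocodazole. The ranges overlapped, and the log2 change was 0.25 ± 0.0902 (edgeR adjusted p = 0.040). Replicates 3 and 4 of nocodazole were the high ones, with mitochondrial shares of 0.875% and 0.977%, while replicates 1 and 2 had 1.36% and 1.50%; the part of this in the result was not tested. The call was lost when any of 7 libraries was left out: DMSO replicates 2, 3 and 4, nocodazole replicates 3 and 4, inhibitor replicate 1, and inhibitor plus nocodazole replicate 4. It was also lost without the filter on low counts. Its exons share 48 and 403 bases with the opposite-strand genes Gm17111 and Gm35558, which had 129 and 10606 counts beside 1955205 for Dync1h1.

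Dynll1, a small light chain that also binds many proteins outside dynein, fell from 168.5, 173.1, 169.4 and 177.8 CPM to 128.5, 126.4, 142.6 and 134.7 CPM. No nocodazole library reached the lowest DMSO library, and the log2 change was -0.37 ± 0.0893 (edgeR adjusted p = 0.0036). Pafah1b1, which encodes LIS1, the dynein regulator lost in lissencephaly, went from 789, 797, 780 and 806 CPM to 742, 737, 689 and 713 CPM. Its ranges did not overlap either, but the log2 change of -0.14 ± 0.052 was close to the threshold (edgeR adjusted p = 0.046). That call was lost without any one of the DMSO or nocodazole libraries, or without inhibitor plus nocodazole replicate 4, and with DESeq2's size factors in edgeR, without the filter on low counts, or with only the 2 groups in the fit.

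Among the members that were not called, the other light chain gene Dynll2 stood at -0.16 ± 0.0887 on the log2 scale (edgeR adjusted p = 0.16), with 381 to 424 CPM in DMSO and 339 to 379 CPM in nocodazole. The intermediate chains, which carry the light chains and bind dynactin, had -0.15 ± 0.087 for Dync1i1 (edgeR adjusted p = 0.19) and -0.12 ± 0.0611 for Dync1i2 (0.15). The light intermediate chains, which bind the adaptors, had 0.06 ± 0.0593 for Dync1li1 (0.42) and 0.07 ± 0.0516 for Dync1li2 (0.34).

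The inhibitor without nocodazole was compared with DMSO to ask whether the motor's genes respond to the inhibitor in neurons not given nocodazole. Both intermediate chains, both light intermediate chains and Dynll1 fell, and no member rose. These 5 of 10 stand beside 13.0% of all tested genes called, with 5.78% higher and 7.24% lower. The members' median log2 change was -0.17, beside 0.03 over all tested genes. Beside these falls, pan-neuronal markers summed to 9852 to 11659 CPM against 11695 to 12848 in DMSO, sensory neuron markers to 3939 to 4055 against 4188 to 4542 CPM, and mitochondrial shares were 1.06% to 1.78% against 0.765% to 1.07%. By gene, 0 of 10 pan-neuronal and 1 of 10 sensory neuron markers were called in this comparison. The part of these sums and shares in the result was not tested.

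Dync1i1, the neuron-enriched intermediate chain, measured 186, 194, 178 and 197 CPM in DMSO and 143, 127, 135 and 162 CPM in the inhibitor group. All libraries with the inhibitor alone lay below all DMSO libraries, with a log2 change of -0.41 ± 0.0871 (edgeR adjusted p = 0.0060). Dync1i2, the more widely expressed intermediate chain, went from 254, 269, 265 and 260 CPM to 235, 212, 219 and 245 CPM, with a log2 fold change of -0.20 ± 0.0611 (edgeR adjusted p = 0.039). The Dync1i2 call was lost when any of 6 libraries was left out, namely DMSO replicates 2, 3 and 4, inhibitor replicates 2 and 3, and inhibitor plus nocodazole replicate 4.

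Of the light intermediate chains, Dync1li1 lay at 221, 241, 237 and 250 CPM in DMSO and at 197, 183, 186 and 213 CPM with the inhibitor, for a log2 change of -0.28 ± 0.0594 (edgeR adjusted p = 0.0057). Dync1li2 lay at 406, 420, 437 and 452 CPM in DMSO and at 349, 336, 336 and 372 CPM with the inhibitor, for a log2 change of -0.30 ± 0.0517 (edgeR adjusted p = 0.0017). Neither gene's groups overlapped. Exons of Dync1li2 share 427 bases with the antisense gene K230015D01Rik, which had 2000 counts beside 218967.

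For Dynll1 the inhibitor libraries read 135.5, 108.4, 125.8 and 150.0 CPM, all below the DMSO libraries, and the log2 change was -0.41 ± 0.0893 (edgeR adjusted p = 0.0077). In the same order these libraries had mitochondrial shares of 1.08%, 1.39%, 1.78% and 1.06%, and the part of this in the result was not tested. Pafah1b1 had -0.14 ± 0.052 (edgeR adjusted p = 0.089), with 668 to 762 CPM against 780 to 806 CPM in DMSO. The remaining members gave small values: 0.05 ± 0.0902 for Dync1h1 (edgeR adjusted p = 0.76), -0.06 ± 0.0669 for Bicd2 (0.56), -0.05 ± 0.0494 for Ndel1 (0.54) and -0.04 ± 0.0887 for Dynll2 (0.82).

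**Figure D2:**
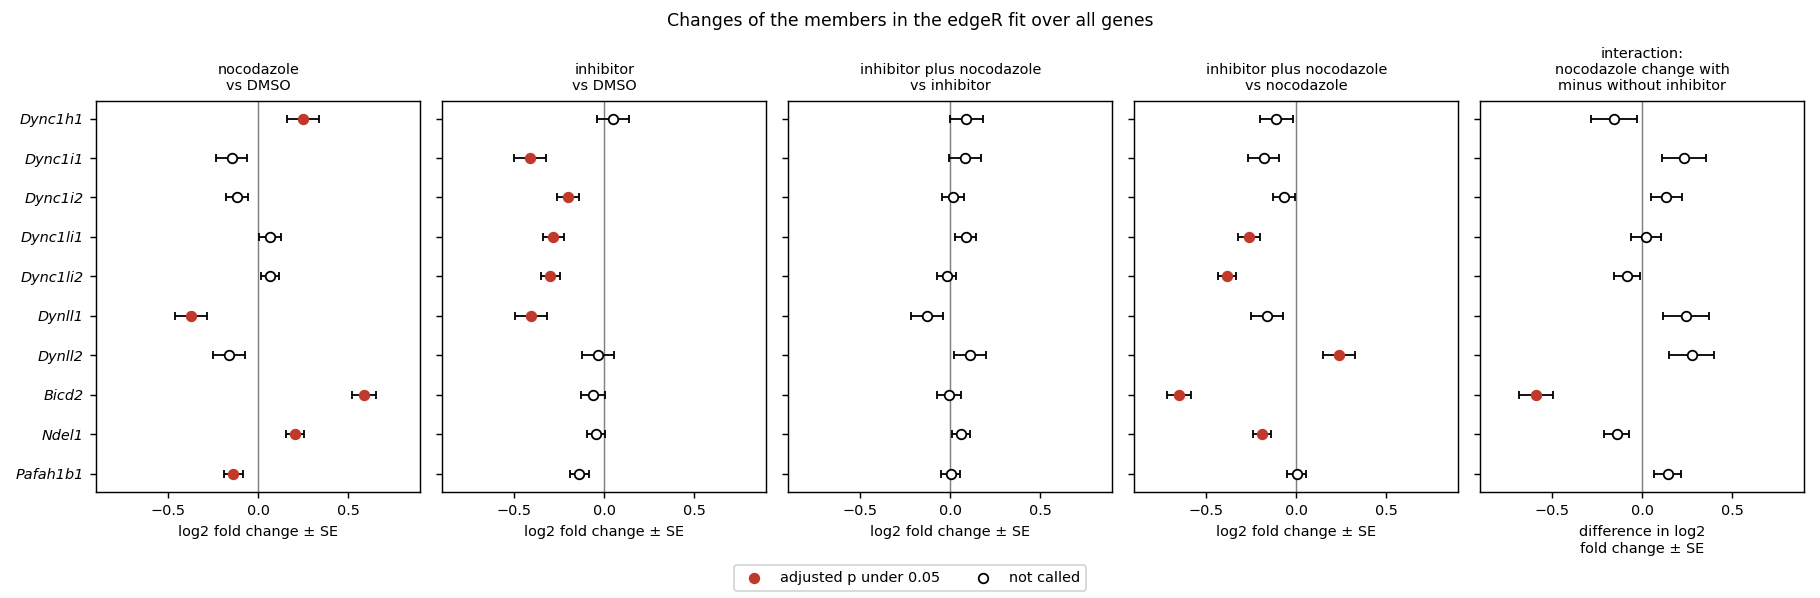
Log2 fold change (horizontal axis) of each member with its SE in the 4 pairwise contrasts, and the difference between the nocodazole changes with and without inhibitor (rightmost panel); filled points have an edgeR adjusted p under 0.05. Bicd2 is at 0.58 for nocodazole, -0.65 for the inhibitor in nocodazole and -0.59 for the difference, and no member is called for nocodazole in the presence of the inhibitor.

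Nocodazole in the presence of the inhibitor was compared with the inhibitor alone. No member was called, beside 0.0835% of all tested genes called, with 0.0783% higher and 0.00522% lower. That share is 16 genes, which became 88 without inhibitor plus nocodazole replicate 1. For the members, 0 had an unadjusted p under 0.05 in edgeR, and DESeq2 and limma-voom also called 0. Bicd2 measured 217, 225, 248 and 213 CPM with the inhibitor and 251, 226, 205 and 217 CPM with inhibitor plus nocodazole, a log2 change of -0.01 ± 0.067. The members' log2 changes ran from -0.13 ± 0.0893 for Dynll1 to 0.11 ± 0.0887 for Dynll2. Without the replicate that stood apart, Dynll2 was at 0.20 (edgeR adjusted p = 0.49) and Dync1h1 and Dync1i1 were at 0.15 and 0.16 (0.72 and 0.68). A p that misses the threshold does not show that the groups were alike.

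The effect of the inhibitor in neurons given nocodazole was read from inhibitor plus nocodazole against nocodazole. Bicd2, Ndel1, Dync1li1 and Dync1li2 were lower and Dynll2 was higher. These 5 of 10 stand beside 33.9% of all tested genes called, with 17.7% higher and 16.2% lower. The members' median log2 change was -0.17, beside 0.00 over all tested genes. This comparison shares its nocodazole libraries with the first one, so the 2 are not independent.

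Bicd2 in inhibitor plus nocodazole, at 205 to 251 CPM, lay below every nocodazole library, and the log2 change was -0.65 ± 0.0672 (edgeR adjusted p = 1.7e-06). Ndel1 gave 102.9, 98.1, 104.0 and 105.8 CPM with both drugs, all below the nocodazole libraries, with a log2 change of -0.19 ± 0.0494 (edgeR adjusted p = 0.0064). Dync1li1 went from 241, 243, 250 and 257 CPM in nocodazole to 193, 198, 220 and 215 CPM, with a log2 fold change of -0.26 ± 0.0594 (edgeR adjusted p = 0.0025). Dync1li2 went from 449, 471, 427 and 448 CPM to 351, 330, 351 and 340 CPM, with a log2 fold change of -0.39 ± 0.0517 (edgeR adjusted p = 2.5e-05). Both light intermediate chains were thus lower in all 8 libraries with the inhibitor than in all 8 without it, whether or not nocodazole was present.

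Dynll2, at 339, 354, 370 and 379 CPM in nocodazole, measured 345, 455, 484 and 416 CPM with both drugs, for a log2 change of 0.24 ± 0.0887 (edgeR adjusted p = 0.049). The low value belongs to the replicate that stood apart; without it the groups did not overlap and the log2 change was 0.33 (edgeR adjusted p = 0.0021). The Dynll2 call was otherwise fragile. It was lost without any one of the DMSO or nocodazole libraries, inhibitor replicates 1 or 3, or inhibitor plus nocodazole replicates 2, 3 or 4, and with DESeq2's size factors, without the filter on low counts, with limma-voom, or with only the 2 groups in the fit. Dync1h1 had -0.11 ± 0.0902 (edgeR adjusted p = 0.38), Dync1i1 -0.18 ± 0.0871 (0.12), Dync1i2 -0.07 ± 0.0611 (0.42), Dynll1 -0.16 ± 0.0894 (0.18) and Pafah1b1 0.00 ± 0.052 (0.98).

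The interaction compares the nocodazole change with the inhibitor to that without it, and so tests whether the inhibitor altered the response itself. Bicd2 was the one member called, with a difference of -0.59 ± 0.0947 on the log2 scale (edgeR adjusted p = 0.00057), beside 18.7% of all tested genes, 9.52% higher and 9.20% lower. Ndel1 and Dync1h1 had differences of -0.14 ± 0.0699 (edgeR adjusted p = 0.16) and -0.16 ± 0.128 (0.41), so a dependence of their rise on the inhibitor was not shown. For Dync1li1 and Dync1li2 the differences were 0.02 ± 0.0839 (0.89) and -0.09 ± 0.0731 (0.43), and a dependence of the inhibitor's effect on nocodazole was likewise not shown. Without inhibitor plus nocodazole replicate 1, 3 further members were called: Dynll2 at 0.36 (edgeR adjusted p = 0.013), Dynll1 at 0.32 (0.043) and Dync1i1 at 0.31 (0.044). With all libraries the same genes had 0.27 ± 0.125 (0.14), 0.24 ± 0.126 (0.19) and 0.23 ± 0.123 (0.20).

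The members include 3 pairs of genes for alternative subunits at one place in the motor, and the ratio of a pair within a library does not depend on library scaling. The log2 ratio of Dynll1 to Dynll2 counts was -1.33, -1.28, -1.17 and -1.13 in DMSO and -1.40, -1.48, -1.38 and -1.49 in nocodazole. It was lower still with the inhibitor, at -1.60, -1.73, -1.55 and -1.54, and with both drugs, at -1.79, -1.91, -1.97 and -1.66. Every group's range lay below that of DMSO without overlap, and the mean difference from DMSO was -0.21 for nocodazole and -0.38 for the inhibitor. Inhibitor plus nocodazole differed from nocodazole by -0.40. Each of these 3 differences had the smallest p that an exact two-sided permutation test of 4 against 4 allows, 0.0286, and an adjusted p of 0.0857 over the 12 ratio tests, which does not pass. A fully separated ratio could pass only if most of the 12 tests reached this smallest p. The adjusted p thus cannot decide whether a single separated ratio differs.

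For the intermediate chains, the log2 ratio of Dync1i1 to Dync1i2 was -0.45, -0.47, -0.58 and -0.40 in DMSO and -0.71, -0.75, -0.70 and -0.60 with the inhibitor. The groups did not overlap, and the difference of -0.21 had the same exact permutation p of 0.0286 (adjusted 0.0857). Nocodazole left a difference of -0.03 from DMSO (exact permutation p = 0.486). The light intermediate chains kept closer ratios: Dync1li1 to Dync1li2 differed between groups by -0.00 to 0.12, with exact permutation p-values from 0.114 to 1.

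**Figure D3:**
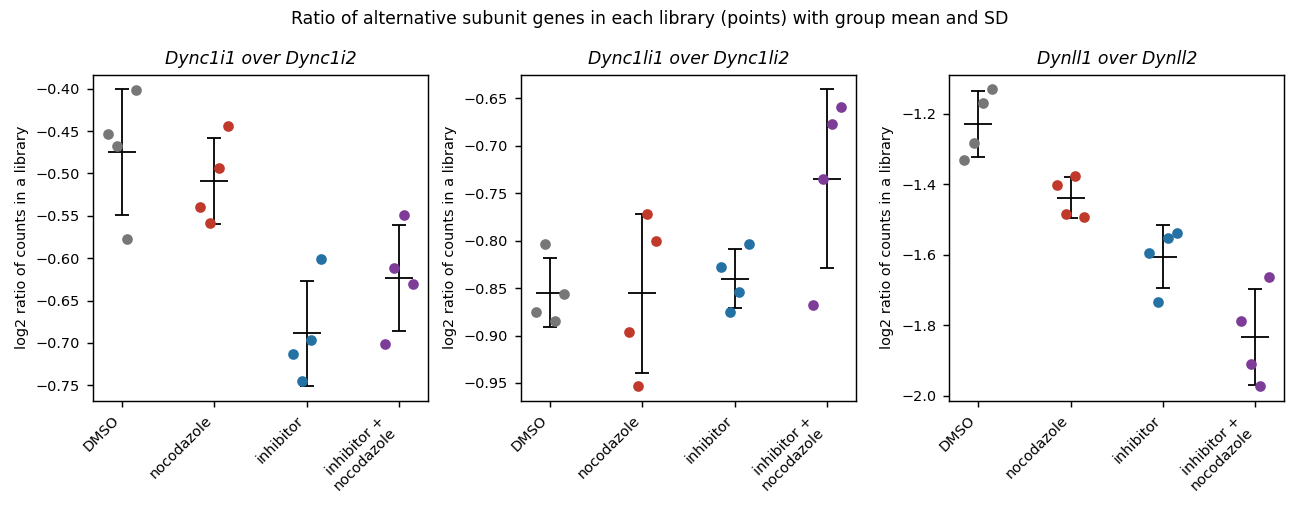
Log2 ratio of counts (vertical axis) for 3 pairs of alternative subunit genes in each library (points), by group, with the mean and SD as bars. The Dynll1 to Dynll2 ratio lies between -1.33 and -1.13 in DMSO and below that in the other 12 libraries, and the Dync1i1 to Dync1i2 ratio is lower with the inhibitor alone than in DMSO.

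Correlations of log2 CPM over the 16 libraries are given as a description, since the libraries share their groups. Dync1i1 and Dync1i2 followed each other with a Pearson r of 0.95, Dync1li1 and Dync1li2 with 0.90, and Dynll1 followed Dync1i2 with 0.90. Bicd2 was closest to Ndel1, at 0.87, and farthest from Dynll2, at -0.69. The heavy chain was close to no other member: its highest r was 0.36, with Bicd2. Over all tested genes, Dync1h1 was most like Kidins220 (r = 0.93), Gm1821 (0.90), Npas3 (0.89), A330076H08Rik (0.89) and Bcl6b (0.86). Bicd2 was most like Tacc1 (0.98), the clock gene Per1 (0.98), Zbtb21 (0.98), Pvr (0.98) and Cln8 (0.98).

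Dynactin, the complex that joins dynein to cargo adaptors, was represented by 12 genes, all tested. With nocodazole 6 fell and 1 rose, beside the 19.0% and 18.6% of all genes given above, and their median log2 change was -0.16. The 5 with the largest changes included the actin-related subunits Actr1b (-0.29 ± 0.11), Actr1a (-0.24 ± 0.0545) and Actr10 (-0.24 ± 0.059). Also among the 5 were the microtubule-binding subunit Dctn1 (-0.25 ± 0.055) and the capping protein gene Capzb (-0.21 ± 0.05). The call for Actr1b (edgeR adjusted p = 0.049) was lost in 10 of 16 fits that each left out 1 library. Beyond these 5, Dctn5 fell (-0.18 ± 0.0537) and Dctn4 rose (0.14 ± 0.0469), the first call being lost without DMSO replicate 4 and the second in 7 of the 16 such fits.

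Dctn1 lay at 1068 ± 58.4 CPM in DMSO, 898 ± 40.2 in nocodazole, 886 ± 28.1 in the inhibitor group and 852 ± 36.4 CPM with both drugs (SD, n = 4). With the inhibitor alone 5 dynactin genes fell and 0 rose: Dctn1 (-0.27 ± 0.055), Actr1a (-0.22 ± 0.0545), Capza1 (-0.22 ± 0.0666), Capzb (-0.20 ± 0.0499) and Dctn5 (-0.17 ± 0.0536). Over all tested genes 7.24% were lower and 5.78% higher in that comparison. The median was -0.19 beside 0.03 over all genes. In single-library omissions 4 of these 5 calls could be lost, Dctn1 being the exception. The count with 1 library left out ranged from 1 to 7. No dynactin gene rose by edgeR in that comparison: 0 had an unadjusted p under 0.05 on the higher side, and DESeq2 and limma-voom called 0 there.

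Adding the inhibitor to nocodazole lowered 1 dynactin gene, Dctn2, which encodes dynamitin (-0.18 ± 0.0507, edgeR adjusted p = 0.0095). Over all tested genes 16.2% were lower and 17.7% higher in that comparison. For nocodazole in the presence of the inhibitor none of the 12 was called, where only 0.0835% of all tested genes were. In that comparison 0 had an unadjusted p under 0.05 in edgeR, and DESeq2 and limma-voom called 0. The interaction was called for 2 of the 12, beside 9.52% of all tested genes higher and 9.20% lower. It was positive for both, Actr1a (0.25 ± 0.077) and Actr10 (0.28 ± 0.0834). Their nocodazole changes were -0.24 each without the inhibitor and 0.01 ± 0.0545 and 0.04 ± 0.059 with it, neither of the latter called. Both interaction calls were lost when inhibitor replicate 2 or 3, DMSO replicate 4, or inhibitor plus nocodazole replicate 3 or 4 was left out, and that of Actr10 also without DMSO replicate 3.

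Of 20 other adaptors and regulators, 19 were tested, the low-count Rilp being left out. With nocodazole 5 rose and 0 fell (0 at an unadjusted p under 0.05 on the lower side, and 0 by DESeq2 or limma-voom), with a median log2 change of 0.03; over all tested genes 18.6% were higher and 19.0% lower. Nin, a centrosomal protein and dynein activator, went from 58.7 ± 5.09 to 111 ± 6.84 CPM (SD, n = 4). Its log2 change was 0.91 ± 0.105 (edgeR adjusted p = 5.7e-06). Hook2, of the Hook family of adaptors, went from 8.60 ± 1.07 to 15.1 ± 2.12 CPM, a log2 change of 0.81 ± 0.14. Spdl1, the kinetochore adaptor Spindly, and Numa1, a spindle-pole partner of dynein, rose by 0.68 ± 0.218 and 0.21 ± 0.0719. The call for Spdl1 was lost without DMSO replicate 1 or 4 or nocodazole replicate 3 or 4. That for Numa1 was lost without DMSO replicate 1 or 2 or nocodazole replicate 3. Both calls were also lost without the filter on low counts. Spdl1 rested on few reads, with 88 counts in the 4 DMSO libraries and 131 in nocodazole. It had 81 counts in the inhibitor group and 57 with both drugs, so its changes in every comparison are uncertain.

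Bicdl2, a relative of Bicd2, had the largest log2 change of the pathway genes at 3.49 ± 0.458 (edgeR adjusted p = 2.0e-05), but on few reads. It had 17 counts in the 4 DMSO libraries, 186 in nocodazole, 13 in the inhibitor group and 9 with both drugs, and its highest level was 1.74 CPM. DMSO replicate 2 held 10 of the 17 DMSO counts, and without it the log2 change was 4.35 and the interaction -4.83. A fitted change at such counts depends on the prior count used. Bicd1, the closest relative of Bicd2, was not called with nocodazole, at 0.01 ± 0.0869 (edgeR adjusted p = 0.94).

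With the inhibitor alone Hook2 rose (0.69 ± 0.14), and Trak1, a mitochondrial transport adaptor, and Mapk8ip1, the JNK scaffold JIP1, fell (-0.24 ± 0.0518 and -0.22 ± 0.0706). The Mapk8ip1 call was lost in 8 of 16 fits that each left out 1 library. Over all tested genes 5.78% were higher and 7.24% lower with the inhibitor alone. When the inhibitor was added to nocodazole, 6 of the 19 fell and 1 rose, where 16.2% of all tested genes were lower and 17.7% higher, and their median was -0.10. Bicdl2 (-4.35 ± 0.506), Spdl1 (-1.28 ± 0.228), Nin (-1.10 ± 0.106) and Trak1 (-0.28 ± 0.0518) were lower, as were Bicd1 (-0.24 ± 0.087, lost in 9 of 16 such fits) and Mapk8ip1 (-0.22 ± 0.0706, lost without nocodazole replicate 3). Nde1, the paralog of Ndel1, was higher by 0.75 ± 0.222, at 3.06 ± 0.428 against 1.83 ± 0.649 CPM, a call lost without nocodazole replicate 3. None of the 19 was called for nocodazole in the presence of the inhibitor, where only 0.0835% of all tested genes were. In that comparison 0 had an unadjusted edgeR p under 0.05, and DESeq2 and limma-voom called 0.

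The interaction was negative and called for 4 of these genes, Bicdl2 (-3.97 ± 0.872), Spdl1 (-1.17 ± 0.322), Nin (-1.03 ± 0.149) and Hook2 (-0.79 ± 0.197), and positive for 0, where 9.20% of all tested genes were lower and 9.52% higher. Hook2 differed from the others in that it was high in all 3 treated groups, at 13.9 ± 2.13 CPM with the inhibitor and 14.1 ± 2.32 CPM with both drugs.

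**Figure D4:**
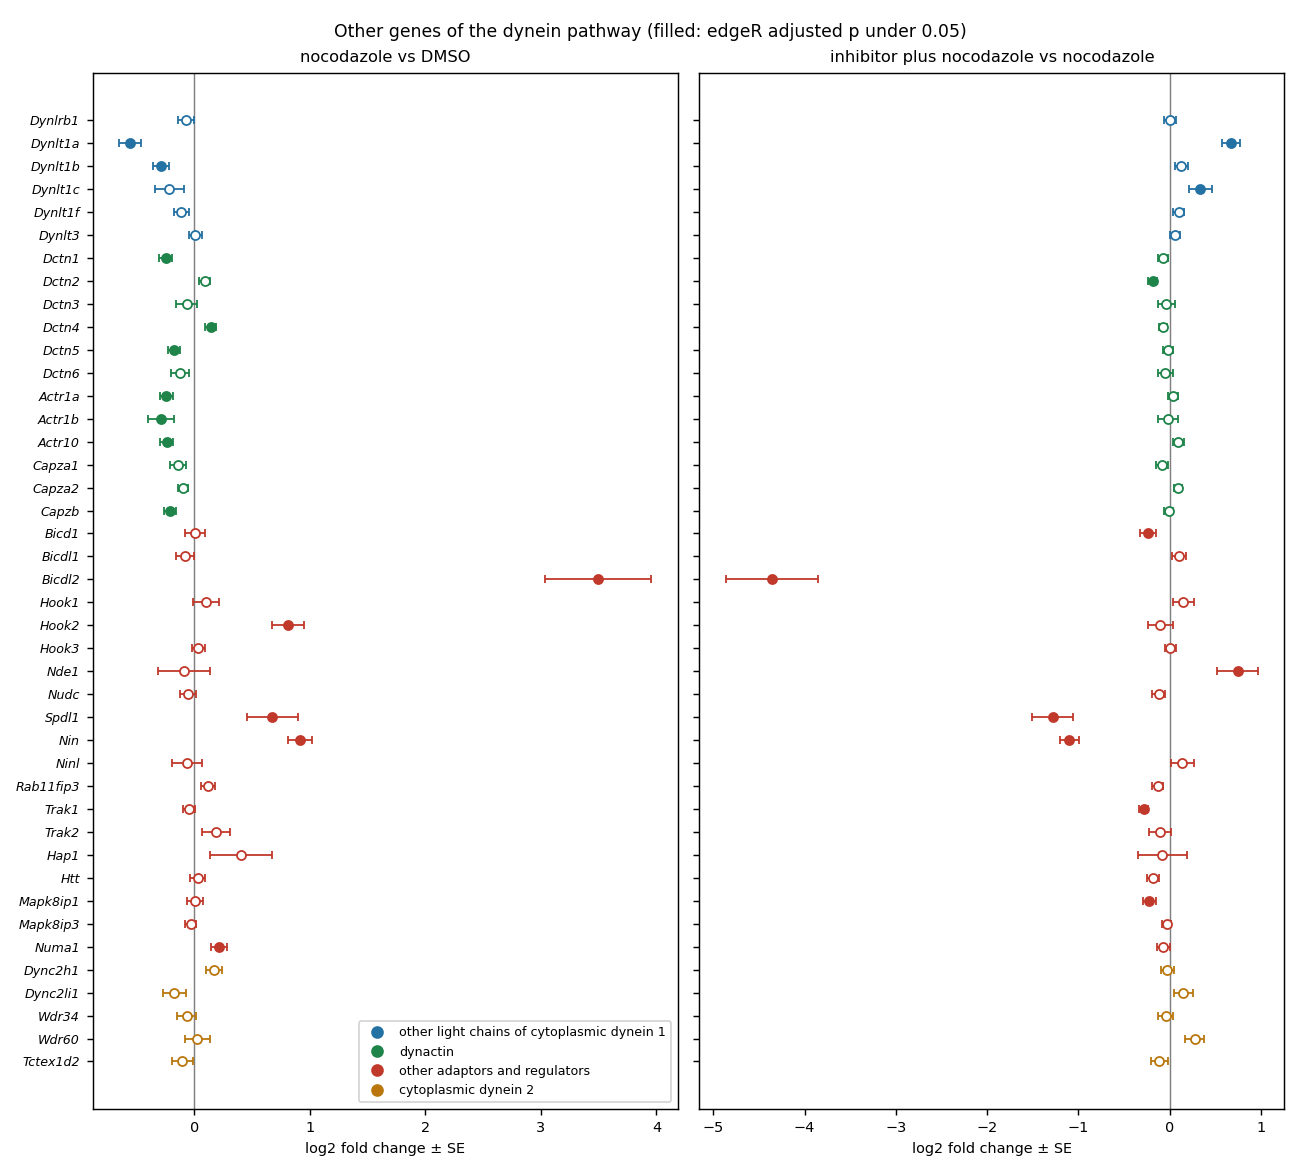
Log2 fold change with SE (horizontal axis) of the tested genes of 4 other pathway lists, for nocodazole against DMSO (left) and inhibitor plus nocodazole against nocodazole (right); colours mark the list and filled points an edgeR adjusted p under 0.05. Nin is at 0.91 on the left and -1.10 on the right, and Bicdl2, the outermost point in both panels, rests on 225 counts in all.

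Among 7 other light chain genes of cytoplasmic dynein 1, 6 were tested, with 2 lower and 0 higher under nocodazole, where 19.0% of all tested genes were lower and 18.6% higher. Dynlt1a had -0.56 ± 0.0944 and Dynlt1b -0.29 ± 0.0667, and the list's median was -0.16. With the inhibitor added to nocodazole, Dynlt1a rose by 0.67 ± 0.0943 and Dynlt1c by 0.34 ± 0.125, the latter lost in 10 of 16 fits that each left out 1 library. Over all tested genes 17.7% were higher and 16.2% lower in that comparison. The interaction of Dynlt1a was 0.45 ± 0.132, lost without inhibitor replicate 2 or 3 or inhibitor plus nocodazole replicate 4. The Dynlt1 genes are near-identical copies, so reads may have been split among them, and Dynlt1a shares 580 exon bases with the opposite-strand gene Tmem181a, which had 55836 counts beside 6048; these values are uncertain. No gene of this list was called by edgeR for the inhibitor alone, where 13.0% of all tested genes were. There 2 had an unadjusted edgeR p under 0.05, and DESeq2 and limma-voom called 0. For nocodazole in the presence of the inhibitor none was called either (0 and 0), beside 0.0835% of all tested genes. The roadblock light chain Dynlrb1 had a nocodazole change of -0.07 ± 0.0669 (edgeR adjusted p = 0.42). Of the 5 genes of cytoplasmic dynein 2, the motor of cilia, 0 were called in any contrast by edgeR, DESeq2 or limma-voom. Over all tested genes edgeR called 37.5% for nocodazole, 13.0% for the inhibitor and 0.0835% for nocodazole with the inhibitor. It called 33.9% for the inhibitor in nocodazole and 18.7% for the interaction. A list of 5 genes is too short to differ clearly from these shares. At an unadjusted p under 0.05, edgeR found 1 of the 5 for nocodazole, Dync2h1 at 0.17 ± 0.0704. It found 1, Wdr60, for the inhibitor alone and 1, again Wdr60, for the inhibitor in nocodazole, and 0 in the other 2 contrasts.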

How the data were processed

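RNA of 16 libraries was depleted of ribosomal RNA and sequenced, per the labels' protocols. The authors deposited 1 table of counts, whole numbers per Ensembl gene. Per the submitters' processing notes STAR, Salmon and GRCm39 were used; which tool gave the counts, its version, whether strand was used and how reads matching several genes were assigned are not given in the sources used here. Columns were matched to samples by the labels. GENCODE M21 on GRCm38, a different build from the authors', gave symbols for 94.1% of identifiers and exon lengths, and promoters came from RefSeq on GRCm38.p6.

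In R 4.3.3, edgeR 4.0.16 (TMM factors 0.9595 to 1.064, default filterByExpr, quasi-likelihood test, 1 mean per group over all 16 libraries) tested 19156 genes, 72 of them without a symbol, with Benjamini-Hochberg adjustment over all. DESeq2 1.42.0 and limma 3.58.1 (voom) were alternatives, as were DESeq2's size factors, no filter, a replicate block, only the 2 groups compared, and leaving out each library. Log2 CPM for correlations used a prior count of 2, and ratios a count of 0.5 added to each gene. The median SE over genes was 0.144 to 0.145 in the pairwise contrasts and 0.204 for the interaction. Tested on simulated counts for nocodazole against DMSO (18825 genes), edgeR recovered 71.4% of genes set to a log2 change of 1 and 33.0% of those set to 0.5, with 9 false calls. The simulation changed only a small share of the genes, whereas 37.5% of tested genes were called in the real comparison. These rates thus do not give the recovery in the real data.

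No 2 replicates agreed within sampling noise: chi-square divided by its degrees of freedom was at least 8.28 in all 24 pairs. In nocodazole it was 11.2 for replicates 1 and 2 and 13.8 for 3 and 4, but 23.6 to 39.8 across these pairs. In the inhibitor group it was 15.8 for replicates 1 and 4 and 11.7 for 2 and 3, but 25.1 to 33.3 across. DMSO pairs ran from 9.76 to 30.0. The part of these splits in the results was not tested. The members, gene lists and tests were chosen with earlier results of these data known. All members were named in each contrast; from each other list the called genes were named, up to the 5 with the largest change, and any beyond these were chosen after their values were seen. Marker lists for glia, fibroblasts, endothelial cells, macrophages and dividing cells were measured as a check of the label. Summed endothelial markers did not exceed 1.30 CPM, macrophage markers 3.39 CPM and proliferation markers 4.30 CPM in any library. Summed Schwann and satellite glia markers ran from 77.2 to 175 CPM, mostly from S100b and Mbp. The summed proliferation markers, though low, ran from 3.57 to 4.30 CPM in nocodazole and from 2.70 to 3.38 in DMSO, without overlap. Their sums were 2.97 to 3.63 CPM in the inhibitor group and 2.32 to 3.72 with both drugs. With nocodazole 2 of the 5 tested were called higher and 0 lower, beside 18.6% and 19.0% of all tested genes. The part of this in the results was not tested.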

Additional observations from a re-analysis of the deposited data

Results flagged for a closer look

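The nocodazole change differed between cultures with and without the inhibitor, by the interaction term of the edgeR fit, for 8 of the genes described. Over all tested genes 18.7% were called for this term. Of the 8, 1 was among 10 members and 1 among 6 other light chain genes. Dynactin gave 2 of 12 and the other adaptors and regulators 4 of 19. Cytoplasmic dynein 2 gave 0 of 5. The difference on the log2 scale was -0.59 for Bicd2 (edgeR adjusted p = 0.00057), -1.03 for Nin (0.00025), -3.97 for Bicdl2 (0.0052), -0.79 for Hook2 (0.011) and -1.17 for Spdl1 (0.019). It was 0.45 for Dynlt1a (0.027), 0.28 for Actr10 (0.029) and 0.25 for Actr1a (0.030). The calls for Dynlt1a, Actr10, Actr1a and Spdl1 were each lost in at least 1 alternative run. Over 52 groups of 4 values (the members' CPM and the 3 subunit ratios), 0 had a library past Dixon's 95% value, where chance gives about 1 in 20.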

How the results depend on the processing

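Of the 16 member calls, 12 were kept in every alternative run and 4 were lost in at least 1 (Dync1h1 and Pafah1b1 for nocodazole, Dync1i2 for the inhibitor, Dynll2 for the inhibitor in nocodazole). None changed sign: of 351 alternative values, 305 stayed on their side of the threshold and 46 did not. The count of members called for nocodazole went from 5 to 3 without the filter on low counts, to 3 with the replicate block, and to between 3 and 5 with 1 library left out. For the interaction the count went from 1 to between 1 and 4 with 1 library left out, 4 being without inhibitor plus nocodazole replicate 1. The cause was not tested. Pafah1b1 was not called for the inhibitor in edgeR but was in DESeq2 (adjusted p = 0.031).

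Values near 0 that were not called changed sign. Pafah1b1 for nocodazole with the inhibitor was -0.000407 with only the 2 groups compared, and for the inhibitor in nocodazole it was -0.00698 with DESeq2's size factors, -0.000729 without the filter, -0.00705 in DESeq2 and -0.000515 with only the 2 groups. With 1 library left out, the log2 change ranged from -0.0097 to 0.0714 for Dync1h1 and from -0.0895 to 0.0038 for Dynll2 (inhibitor against DMSO), from -0.0330 to 0.0303 for Pafah1b1, -0.0161 to 0.0685 for Dync1i2, -0.0622 to 0.0415 for Bicd2 and -0.0382 to 0.0127 for Dync1li2 (inhibitor plus nocodazole against inhibitor). It ranged from -0.0361 to 0.0281 for Pafah1b1 (inhibitor plus nocodazole against nocodazole) and from -0.0061 to 0.0702 for the interaction of Dync1li1.

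Of 39 called values of the other pathway genes, 21 were kept in every alternative and 0 changed sign. Replicate numbers did not pair the libraries: the 24 correlations of same-numbered deviations ran from -0.40 to 0.23, and 14 of 48 best matches fell on the same number. Under the replicate block the calls for Dync1h1 (adjusted p = 0.063) and Pafah1b1 (0.060) for nocodazole and for Dynll2 in the inhibitor plus nocodazole against nocodazole comparison (0.072) were lost, and the other 13 were kept. For the whole table the count of genes called for nocodazole with the inhibitor, 16, was 28 without the filter, 111 in DESeq2, 5 with the replicate block and between 3 (without inhibitor replicate 3) and 88 (without inhibitor plus nocodazole replicate 1) with 1 library left out. Depth did not limit the members, each of which had at least 3099 counts per library.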
